A study of Homo sapiens with 2 samples.

Results

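The transcripts of 10 genes of iron uptake, storage and export were followed through the cell lineages of blood-generating heart-forming organoids (BG-HFOs) on day 14 of differentiation. The genes were found by symbol in the gene lists of both count matrices, all 10 among 36601 listed genes. They are *TFRC* (ENSG00000072274), *TFR2* (ENSG00000106327), *SLC25A37* (ENSG00000147454), *SLC11A2* (ENSG00000110911), *SLC40A1* (ENSG00000138449), *FTH1* (ENSG00000167996), *FTL* (ENSG00000087086), *HAMP* (ENSG00000105697), *STEAP3* (ENSG00000115107) and *HMOX1* (ENSG00000100292).

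Most iron reaches a cell as iron-loaded transferrin, which *TFRC*, the transferrin receptor, carries into endosomes. There *STEAP3* reduces the iron, *SLC11A2* (DMT1) moves it into the cytosol and *SLC25A37* (mitoferrin-1) moves it into mitochondria of erythroid cells, where haem is made. *TFR2* is a second transferrin receptor that senses transferrin in hepatocytes and erythroid cells. Spare iron is stored in ferritin, a shell built of heavy chains (*FTH1*, which oxidise iron) and light chains (*FTL*). *SLC40A1* (ferroportin) is the known iron exporter of vertebrate cells, *HAMP* encodes hepcidin, the hormone that removes ferroportin from the surface, and *HMOX1* frees iron from haem. Erythroblasts take up iron in large amounts for haemoglobin, and macrophages return it from old red cells.

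Each of 2 BG-HFOs, labelled 32.7 and 33.10, gave 1 droplet library in which every captured transcript carries a unique molecular identifier (UMI). Both came from the human embryonic stem cell line hES3 NKX2.5-eGFP, in which a fluorescent reporter marks *NKX2.5*. Aggregates in Matrigel were treated in 2 phases with WNT pathway modulators and received growth factors and cytokines that drive the haemato-endothelial lineage. There was no untreated or other control group, so the organoids served as replicates of 1 condition (n = 2) and comparisons were made between lineages. Organoid 32.7 held 191152562 UMIs in 16866 barcodes and organoid 33.10 held 233818881 UMIs in 19948 barcodes.

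Lineages were gated on raw UMIs of 7 genes, and a cell had to pass exactly 1 gate. The minimum was 100 UMIs of *HBZ* (embryonic globin), 20 of *PF4* (platelet factor), 3 of *PTPRC* (CD45 of leukocytes), 3 of *CDH5* (endothelial cadherin), 10 of *MYH6* (cardiac myosin), 30 of *COL3A1* (mesenchymal collagen) and 20 of *AFP* (endoderm). In the order of the organoids, the gates held 705 and 1648 cells for *HBZ*, 1045 and 2885 for *PF4*, 792 and 394 for *PTPRC*, 1863 and 1533 for *CDH5*, 1117 and 1266 for *MYH6*, 882 and 499 for *COL3A1*, and 171 and 15 for *AFP*. They took in 14815 of the 36685 cells that passed the cell filter, while 56.8% and 53.8% of the cells passed no gate. All listed markers of each lineage were highest in its own gate in both organoids. The libraries shared 100 barcodes, and 2 of these fell into the same gate in both. Every value of the *AFP* gate in organoid 33.10 rests on 15 cells and 264058 UMIs, a depth at which 3 UMIs amount to 11.4 CPM (UMIs of a gene per 1000000 UMIs of the gate).

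Free RNA was not removed from these counts. *HBZ* itself stood at 47553 and 42131 CPM in its own gate and at 43.7 to 538 CPM in the other gates. The gating set this contrast in part, since cells that reached the *HBZ* minimum were left out of the other gates. These *HBZ* values therefore do not measure the amount of free RNA. The *PF4* gate also carried erythroid transcripts, since its 6 summed erythroid markers reached 5498 and 6424 CPM, compared with 27710 and 25556 in the *HBZ* gate and 87.7 to 601 elsewhere. Their part in the iron gene values of the *PF4* gate was not tested. Fold changes below set each gate against the mean of the other 6 gates with edgeR's quasi-likelihood test and Benjamini-Hochberg adjustment over 21409 genes, and a gene counted as higher or lower at an adjusted p under 0.05. Fold changes use totals scaled by edgeR (TMM) and the printed CPM use unscaled totals, so they can differ in size.

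Several of these messenger RNAs carry an iron-responsive element, a hairpin that the iron regulatory proteins bind when iron is scarce. In the leader of a message this blocks translation, and in the 3′ untranslated region (UTR) of *TFRC* it protects the message from decay, so transcript counts of ferritin and ferroportin need not follow their proteins. The sequences are shown because these elements tie storage, export and uptake to the same sensor. UTRs of GENCODE release 44 on GRCh38 were searched on the transcribed strand for CNNNNNCAGTGN, a bulged C, 5 bases and a loop, followed by 5 bases that pair with the 5 before the loop (G with U allowed). In the 27-base sites below, capitals mark the bulged C and the loop.

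*FTH1* 5′ UTR, chr11:61967575-61967601, minus strand: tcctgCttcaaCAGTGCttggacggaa

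*FTL* 5′ UTR, chr19:48965336-48965362, plus strand: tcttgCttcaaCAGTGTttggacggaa

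*SLC40A1* 5′ UTR, chr2:189580662-189580688, minus strand: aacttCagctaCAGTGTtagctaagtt

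*TFRC* 3′ UTR, chr3:196050980-196051006, minus strand: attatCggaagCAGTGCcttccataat

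*TFRC* 3′ UTR, chr3:196050576-196050602, minus strand: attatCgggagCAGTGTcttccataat

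*TFRC* 3′ UTR, chr3:196050511-196050537, minus strand: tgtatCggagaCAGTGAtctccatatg

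*TFRC* 3′ UTR, chr3:196050464-196050490, minus strand: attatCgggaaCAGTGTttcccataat

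These 7 sites lay in 4 of the 10 genes. Among all protein-coding genes with a 5′ UTR, 39 of 19241 (0.203%) held the pattern there, and 142 of 19608 (0.724%) held it in a 3′ UTR. The match describes the letters only, and the droplet counts from the 3′ end do not separate transcript isoforms with and without an element. Elements with another loop, a further bulge or a mismatch in the paired bases are missed by this pattern. The search therefore does not show that a gene lacks an element or has no more than those listed.

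The *HBZ* gate held higher levels of genes of uptake, storage and export. In it 8 of the 10 iron genes were higher and 0 lower, where 22.7% of all genes tested were higher and 29.9% lower. The median log2 fold change was 1.42 over the 10 genes and −0.20 over all genes tested. *TFRC*, the entry route of transferrin iron, reached 262 CPM in organoid 32.7 and 254 CPM in organoid 33.10, whereas the highest other value was 64.6 CPM, in the *PTPRC* gate of organoid 33.10. The organoids therefore did not overlap between the *HBZ* gate and any other, with a log2 fold change of 3.43 ± 0.087 (SE, edgeR adjusted p = 3.63e-11). At least 1 *TFRC* UMI was found in 71.9% and 71.2% of the cells of this gate. After each cell was thinned to 3000 UMIs the share was 37.6% and 41.6%, compared with 3.74% to 16.7% in the other gates.

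*TFR2* was likewise highest in erythroid cells, at 58.5 and 53.3 CPM in the *HBZ* gate (log2 fold change 4.69 ± 0.13, edgeR adjusted p = 6.25e-11). The *AFP* gate came next with 7.14 and 15.2 CPM, values that rest on 15 and 4 UMIs, and the other gates held 1.53 to 3.91 CPM. *STEAP3*, the endosomal reductase, was also highest in the *HBZ* gate, at 11.6 and 10.4 CPM. Its neighbours were the *PTPRC* gate (4.00 and 6.20 CPM) and the *CDH5* gate (5.43 and 3.74 CPM), whose organoids overlapped. The log2 fold change of *STEAP3* in the *HBZ* gate was 2.73 ± 0.26 (edgeR adjusted p = 2.66e-06), and the value from organoid 33.10 alone, which has no test, was 3.62. In that organoid *STEAP3* had 0 UMIs in the 15 cells of the *AFP* gate. Those cells enter the mean of the other gates with the same weight as any gate, here and in other values from organoid 33.10 alone. The antisense gene of *STEAP3* is counted as a separate row.

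*SLC25A37* reached 1505 and 1908 CPM in the *HBZ* gate, where 96.9% and 98.4% of cells held at least 1 UMI, with a log2 fold change of 4.55 ± 0.12 (edgeR adjusted p = 6.53e-11). The *PF4* gate followed at 185 and 268 CPM, above all of the remaining gates (37.9 to 117 CPM). *SLC11A2*, the endosomal iron carrier, varied less between gates. It ranged from 20.8 to 41.7 CPM over all gates and organoids and rose by a log2 fold change of just 0.74 ± 0.11 in the *HBZ* gate (edgeR adjusted p = 7.62e-05). The organoids of the *HBZ* gate (33.8 and 36.8 CPM) and the *PTPRC* gate (33.6 and 40.5 CPM) overlapped for this gene. Its fold change in the *HBZ* gate rests in part on the scaling of the totals, which these CPM leave out.

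**Figure D1:**
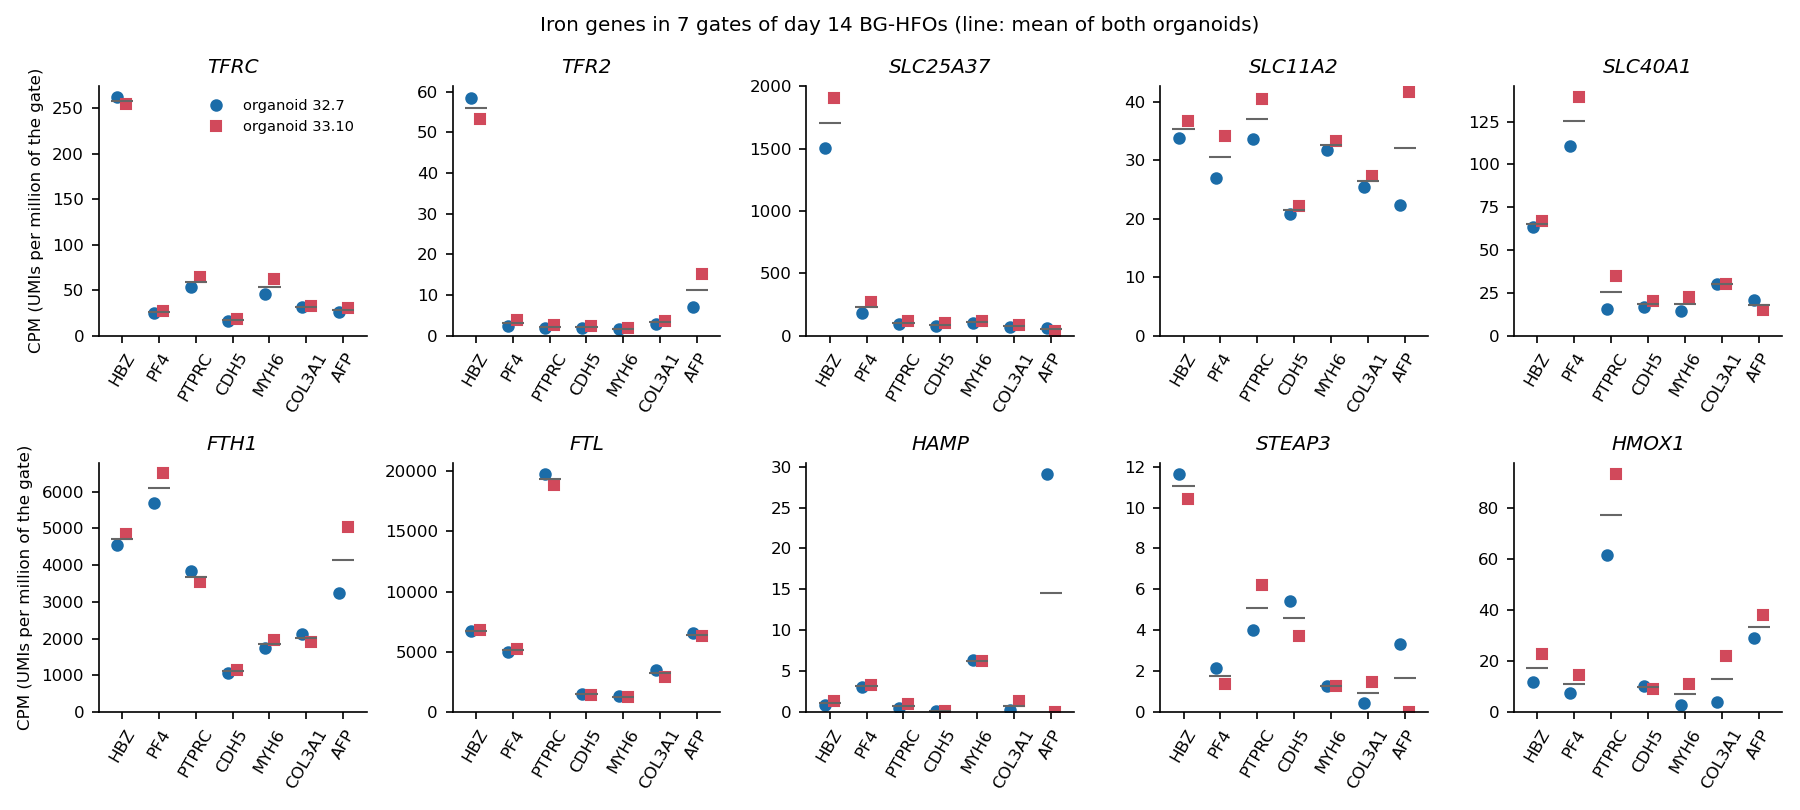
Level of each of the 10 genes (y axis, CPM of the gate, linear from 0) in the 7 gates (x axis). Circles are organoid 32.7, squares organoid 33.10 and grey lines the mean. *TFRC*, *TFR2* and *SLC25A37* peak in the *HBZ* gate, *SLC40A1* and *FTH1* in the *PF4* gate, *FTL* and *HMOX1* in the *PTPRC* gate, and the *HAMP* value of the *AFP* gate comes from organoid 32.7 alone.

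Along the globin content of the *HBZ* gate, *TFRC* and the storage genes had opposite orders in both organoids. The cells of each organoid were ordered by the globin share of their UMIs and divided into 3 classes of equal size, with globin shares of 5.55%, 11.3% and 19.4% in organoid 32.7 and 5.15%, 10.6% and 19.1% in organoid 33.10. *TFRC* went from 362 over 226 to 145 CPM in organoid 32.7 and from 307 over 247 to 171 CPM in organoid 33.10. *SLC25A37* went the other way, from 819 over 1688 to 2401 CPM and from 1171 over 2118 to 2938 CPM. Both ferritin chains followed *SLC25A37*.

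*FTL* stood at 4722, 6849 and 9992 CPM in the classes of organoid 32.7 and at 4851, 7093 and 9806 CPM in those of organoid 33.10. *FTH1* stood at 3533 and 6257 CPM in the outer classes of organoid 32.7 and at 3740 and 6411 CPM in those of organoid 33.10. *SLC40A1* had the same order as *TFRC*, with 82.3 CPM in the lowest and 35.8 CPM in the highest class of organoid 32.7, and 80.6 and 48.1 CPM in organoid 33.10. *TFR2* was 67.2 and 38.0 CPM in the outer classes of organoid 32.7 and 56.6 and 41.9 CPM in those of organoid 33.10. *SLC11A2* was 38.2 and 21.1 CPM in the outer classes of organoid 32.7 and 43.2 and 28.0 CPM in those of organoid 33.10. *STEAP3* had no common direction in the organoids.

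With globin UMIs left out of the totals the orders of *TFRC*, *SLC25A37*, *SLC40A1*, *FTH1* and *FTL* were the same, for example 383, 255 and 179 CPM for *TFRC* in organoid 32.7. These classes were not tested, because they were cut from the same cells, and their depth differed. The median was 21107 UMIs per cell in the lowest and 12409 in the highest class of organoid 32.7, and 15468 and 8789 in organoid 33.10. Counts of *FTH1* did not follow its CPM, at 19445, 21353 and 20444 UMIs in organoid 32.7 and 39589, 40469 and 38283 in organoid 33.10. Those of *FTL* were 25988 in the lowest and 32647 in the highest class of organoid 32.7, and 51347 and 58560 in organoid 33.10.

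**Figure D2:**
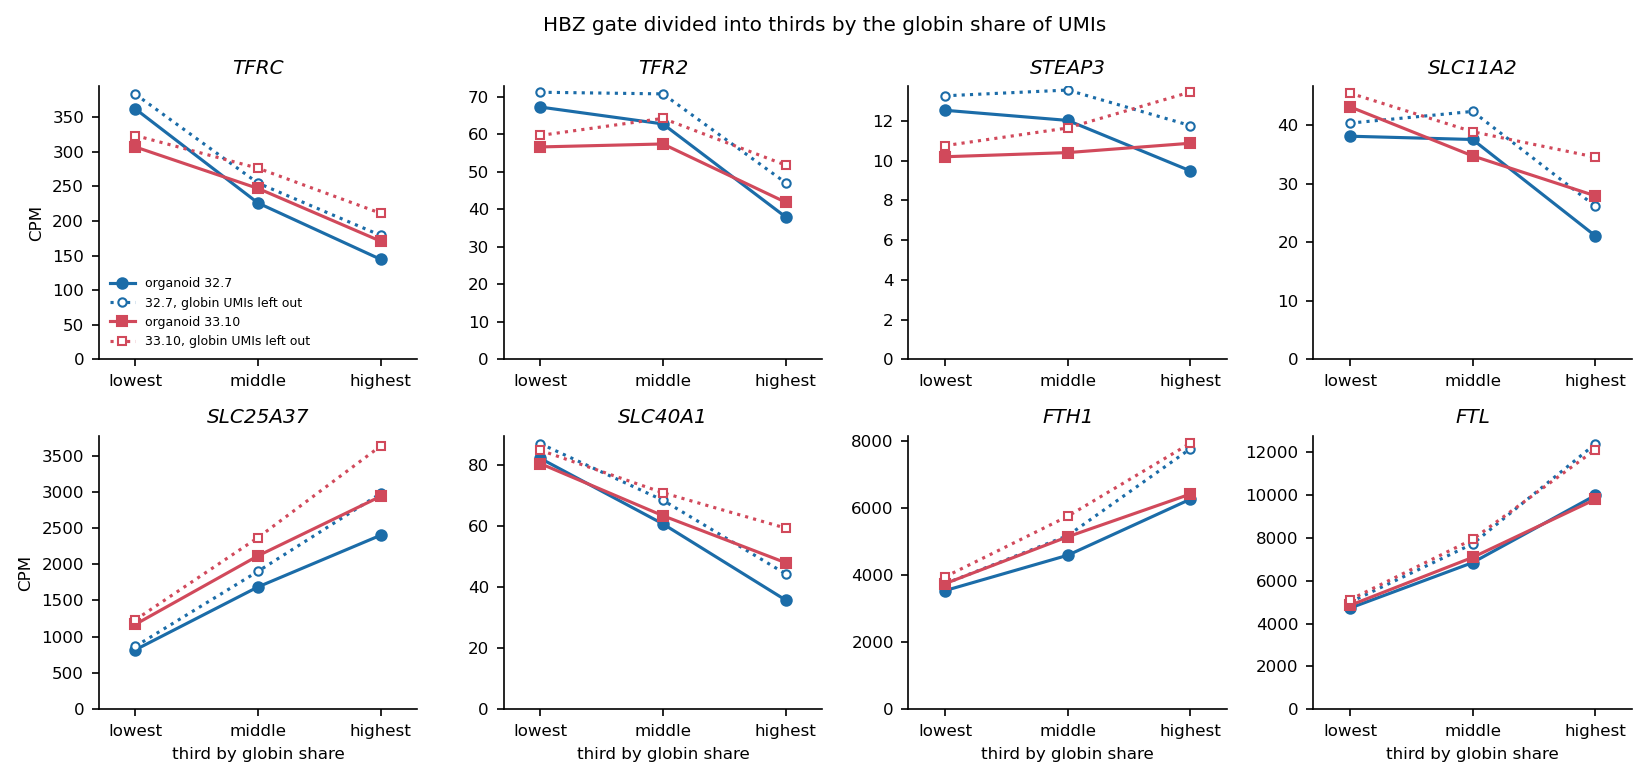
CPM (y axis, linear from 0) of 8 iron genes in 3 equal classes of the *HBZ* gate ordered by globin share of UMIs (x axis). Filled symbols with solid lines are CPM of all UMIs, open symbols with dotted lines leave globin UMIs out of the total. In both organoids *TFRC*, *TFR2*, *SLC11A2* and *SLC40A1* are lowest and *SLC25A37*, *FTH1* and *FTL* highest in CPM in the class with most globin. *STEAP3* differs between the organoids.

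The *HBZ* gate was also split by proliferation, with *MKI67* and *TOP2A* at 2 or more UMIs together (313 and 553 cells) or at 0 UMIs (309 and 884 cells). Of the 10 genes 1 was higher in cycling cells and 4 were lower, where 4.33% of the 15885 genes tested were higher and 2.37% lower. The median log2 fold change was −0.39 over the 10 genes and −0.03 over all genes tested. *TFRC* was higher, at 312 and 316 CPM compared with 179 and 189 CPM in non-cycling cells (log2 fold change 0.58 ± 0.13, edgeR adjusted p = 0.0282). The adjusted p of *TFRC* was 0.0996 with all gate minimums doubled.

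*SLC25A37* was lower in cycling cells, at 1215 and 1432 CPM compared with 2222 and 2651 CPM (−1.07 ± 0.16, edgeR adjusted p = 0.00338). *FTL* fell by 1.30 on the log2 scale (edgeR adjusted p = 0.00342), from 10623 and 9770 to 4951 and 4507 CPM. *FTH1* fell by 0.85 (edgeR adjusted p = 0.0112), from 5973 and 6143 to 3865 and 3835 CPM. *HMOX1* was at 2.82 and 5.58 CPM in cycling and at 24.0 and 44.9 CPM in non-cycling cells, with an edgeR adjusted p of 0.0491 that was 0.0602 by DESeq2 and 0.0944 with 10% of the free RNA profile removed. Among non-cycling cells 31 of 309 and 145 of 884 held a *HMOX1* UMI. Without the highest cell of each organoid the non-cycling levels were 18.9 and 41.3 CPM. *TFR2* (0.64 ± 0.17, adjusted p = 0.0544) and *STEAP3* (0.93 ± 0.29, adjusted p = 0.0964) did not pass the edgeR threshold. *SLC40A1*, which followed *TFRC* along the globin content, was not called here, at 70.9 and 71.0 CPM in cycling and 54.3 and 64.5 CPM in non-cycling cells (0.06 ± 0.32, edgeR adjusted p = 0.945). With the organoid as a block *TFR2* was called (edgeR adjusted p = 0.0372), and the block raised the calls over all genes from 1065 to 1656.

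Cycling cells were deeper, with a median of 25669 and 19107 UMIs against 11411 and 9037 in non-cycling cells, and had a lower globin share (9.60% and 8.70% against 13.6% and 12.4%). The falls of *FTH1*, *FTL* and *SLC25A37* are falls in the share of UMIs, and their median counts per cell were not lower in cycling cells. The median was 93 and 74 *FTH1* UMIs in cycling against 65 and 51 in non-cycling cells. For *FTL* it was 105 and 77 against 102 and 77, and for *SLC25A37* 20 and 24 against 18 and 21.5. The part of depth in these differences was not tested. The classes were cut on raw UMIs, which favours deeper cells in the cycling class. With cells of at least 5000 UMIs alone, the 5 calls were the same. That floor kept 300 and 534 cycling and 246 and 698 non-cycling cells and did not match the depth of the classes.

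Ferritin was abundant in every gate, but its 2 chains peaked in different lineages. Reads of the many *FTH1* and *FTL* pseudogenes could be counted for either gene, which leaves their levels uncertain, and no pseudogene rows of these genes were listed in the files. *FTL* was highest in the *PTPRC* gate, at 19776 and 18865 CPM, followed by the *HBZ* gate at 6742 and 6785 CPM. The log2 fold change in the *PTPRC* gate was 2.66 ± 0.10 (edgeR adjusted p = 4.08e-10). The lowest *FTL* levels were those of the *MYH6* gate, at 1299 and 1224 CPM, and the *CDH5* gate, at 1518 and 1410 CPM.

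*FTH1* was highest in the *PF4* gate, at 5685 and 6521 CPM (1.39 ± 0.12, edgeR adjusted p = 9.06e-07). The *HBZ* gate came next with 4561 and 4843 CPM (1.25 ± 0.12, edgeR adjusted p = 3.29e-06), and its organoids overlapped with those of the *AFP* gate (3251 and 5041 CPM). Endothelial cells of the *CDH5* gate held least, at 1074 and 1139 CPM. The ranking of lineages thus depended on the chain.

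Of all ferritin UMIs, the share of *FTH1* was 57.5% and 61.5% in the *MYH6* gate and 53.2% and 55.4% in the *PF4* gate. It was 41.4% and 44.7% in the *CDH5* gate, 40.4% and 41.7% in the *HBZ* gate and 37.9% and 39.4% in the *COL3A1* gate. The *AFP* gate gave 33.2% and 44.4%. The *PTPRC* gate was apart from all others, with 16.2% and 15.8%. Ferritin of heart muscle is known to be rich in heavy chains and that of spleen and liver in light chains. Since the chains differ in length and in the pseudogenes they share reads with, the shares compare lineages and not the amounts of the chains.

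**Figure D3:**
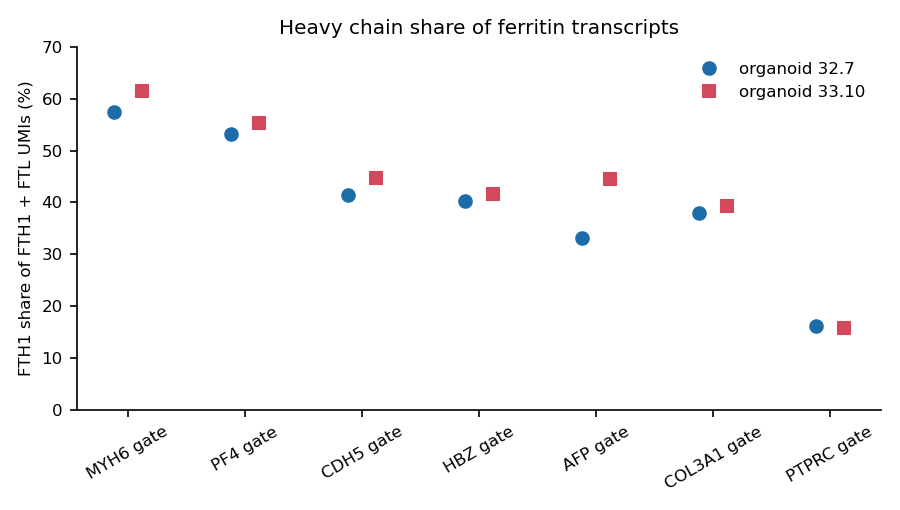
Share of *FTH1* in the UMIs of *FTH1* and *FTL* together (y axis, percent, from 0) per gate (x axis, ordered by the mean), with circles for organoid 32.7 and squares for organoid 33.10. The *PTPRC* gate lies near 16% in both organoids, while every other gate is above 33%.

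Ferroportin had its highest level in the *PF4* gate. In this gate 5 of the 10 genes were higher, where 22.7% of all genes tested were, and 1 was lower, where 22.7% were. The median log2 fold change was 0.34 over the 10 genes and −0.06 over all genes tested. *SLC40A1* stood at 111 and 140 CPM, above the *HBZ* gate (63.5 and 67.1 CPM) and the *COL3A1* gate (30.1 CPM in both organoids). Its log2 fold change was 2.40 ± 0.18 (edgeR adjusted p = 1.96e-07). In organoid 32.7 it was uneven among cells, since 1 cell held 110 of its 1285 UMIs and the level without that cell was 102 CPM.

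*SLC40A1* was also higher in the *HBZ* gate (1.60 ± 0.19, edgeR adjusted p = 1.48e-05). In the remaining gates it lay between 14.2 and 34.7 CPM and was lower in the *CDH5* gate (−1.12 ± 0.22) and the *MYH6* gate (−1.16 ± 0.23, edgeR adjusted p = 0.00114 and 0.000988). *SLC25A37* was higher in the *PF4* gate (0.86 ± 0.15, edgeR adjusted p = 0.000406), as was *FTL* (0.46 ± 0.12, adjusted p = 0.00651). *SLC11A2* was not called (0.21 ± 0.11, adjusted p = 0.135), except with the organoid as a block (adjusted p = 0.0401), by DESeq2 and with halved gate minimums. *TFRC* was lower, at 25.4 and 26.8 CPM (−0.73 ± 0.11, edgeR adjusted p = 0.00021). The globin share of UMIs in this gate was 2.29% and 2.49%, and its part in the level of *SLC25A37* was not tested.

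Along the *PF4* content of the *PF4* gate, divided in the same way into 3 classes after the data were seen, *FTH1* went from 4301 over 5806 to 8446 CPM in organoid 32.7 and from 5100 over 7025 to 8566 CPM in organoid 33.10. *TFRC* went from 34.1 over 23.7 to 9.52 CPM and from 37.1 over 23.1 to 12.1 CPM. *SLC40A1* showed no common order, with 111, 91.1 and 143 CPM in organoid 32.7 and 142, 137 and 138 CPM in organoid 33.10. These orders are descriptions without a test. The classes also differed in depth, with a median of 11520 UMIs per cell in the lowest and 4410.5 in the highest class of organoid 32.7, and 11841 and 6061 in organoid 33.10. *MKI67* fell from 120 CPM in the lowest to 6.21 CPM in the highest class of organoid 32.7, and from 93.5 to 17.4 CPM in organoid 33.10. *FTH1* rose in its share of UMIs but not in counts. Its UMIs were 22204, 23262 and 20403 in the classes of organoid 32.7 and 71801, 68724 and 63148 in those of organoid 33.10. The part of depth and proliferation in these orders was not tested.

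The *PTPRC* gate can hold progenitors as well as leukocytes, since the paper lists *PTPRC* among the genes of its haematopoietic progenitor cluster. In this gate, 6 of the 10 genes were higher and 2 lower, where 27.9% of all genes tested were higher and 24.5% lower. The median log2 fold change was 0.51 over the 10 genes and −0.03 over all genes tested. After *FTL*, the largest change was that of *HMOX1*, at 61.4 and 93.3 CPM (2.66 ± 0.39, edgeR adjusted p = 9.13e-05). *STEAP3* (1.07 ± 0.31), *TFRC* (0.62 ± 0.10), *FTH1* (0.52 ± 0.13) and *SLC11A2* (0.50 ± 0.11) were also higher, at edgeR adjusted p = 0.0111, 0.000285, 0.00429 and 0.00202. *TFR2* (−1.15 ± 0.22) and *SLC25A37* (−0.50 ± 0.17) were lower, at edgeR adjusted p = 0.000818 and 0.0223. The mean they were set against includes the *HBZ* gate, where both genes peak. At 1.85 and 2.50 CPM for *TFR2* and 89.7 and 117 CPM for *SLC25A37*, the *PTPRC* gate lay within the range of the remaining gates. The value of *STEAP3* from organoid 33.10 alone, whose *AFP* gate held 0 *STEAP3* UMIs, was 2.44. The call of *TFRC* was lost with doubled gate minimums (adjusted p = 0.0741) and that of *SLC25A37* with 10% of the free RNA profile removed (adjusted p = 0.225).

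Within this gate the macrophage genes *C1QA*, *C1QB* and *C1QC* divided cells with more ferritin transcripts from cells with more *TFRC*. Cells with 5 or more C1Q UMIs (414 and 220) were set against cells with 0 (260 and 126), and summed macrophage markers were 976 and 906 CPM in the former and 87.7 and 59.5 CPM in the latter. Of the 10 genes 2 were higher in C1Q-positive cells and 1 was lower, where 7.94% of the 15885 genes tested were higher and 5.49% lower. The median log2 fold change was 0.27 over the 10 genes and 0.02 over all genes tested. *FTH1* was at 5862 and 4789 CPM in C1Q-positive and at 1162 and 1414 CPM in C1Q-negative cells (2.08 ± 0.16, edgeR adjusted p = 6.03e-05). *FTL* was at 28770 and 26241 CPM against 9616 and 7339 CPM (1.72 ± 0.19, edgeR adjusted p = 0.000453).

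*TFRC* was lower in C1Q-positive cells, at 31.6 and 38.1 CPM compared with 86.0 and 99.9 CPM (−1.39 ± 0.14, edgeR adjusted p = 0.000251). The groups did not overlap for any of these 3 genes. *SLC40A1* was at 15.9 CPM in C1Q-positive cells of both organoids and at 17.9 and 53.1 CPM in C1Q-negative cells, which was not called (−1.05 ± 0.37, edgeR adjusted p = 0.0966). It passed the threshold under an alternative. In C1Q-negative cells the 5 highest cells held 39.4% and 50.9% of the *SLC40A1* UMIs. Without the highest cell of each class, levels were 13.44 and 42.8 CPM in C1Q-negative and 13.35 and 12.8 CPM in C1Q-positive cells. *HMOX1* was at 95.7 and 119 CPM in C1Q-positive cells and at 4.81 and 62.2 CPM in C1Q-negative cells, which was not called either (1.86 ± 0.73, edgeR adjusted p = 0.132). In the latter class of organoid 33.10, 162 of the 186 *HMOX1* UMIs came from 1 cell, and without that cell its level was 8.09 CPM. With the organoid as a block *HMOX1* (edgeR adjusted p = 0.0252) and *SLC25A37* (0.34 ± 0.090, adjusted p = 0.0322) were called higher as well.

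C1Q-negative cells included cells with *MPO*, an enzyme of granulocyte and monocyte precursors. The 199 and 47 cells of the *PTPRC* gate with 5 or more *MPO* UMIs, a class added after the data were seen, had *TFRC* at 79.2 and 74.4 CPM, *FTH1* at 1383 and 1084 CPM and *FTL* at 11207 and 12640 CPM. Just 15 and 4 of them were C1Q-positive.

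**Figure D4:**
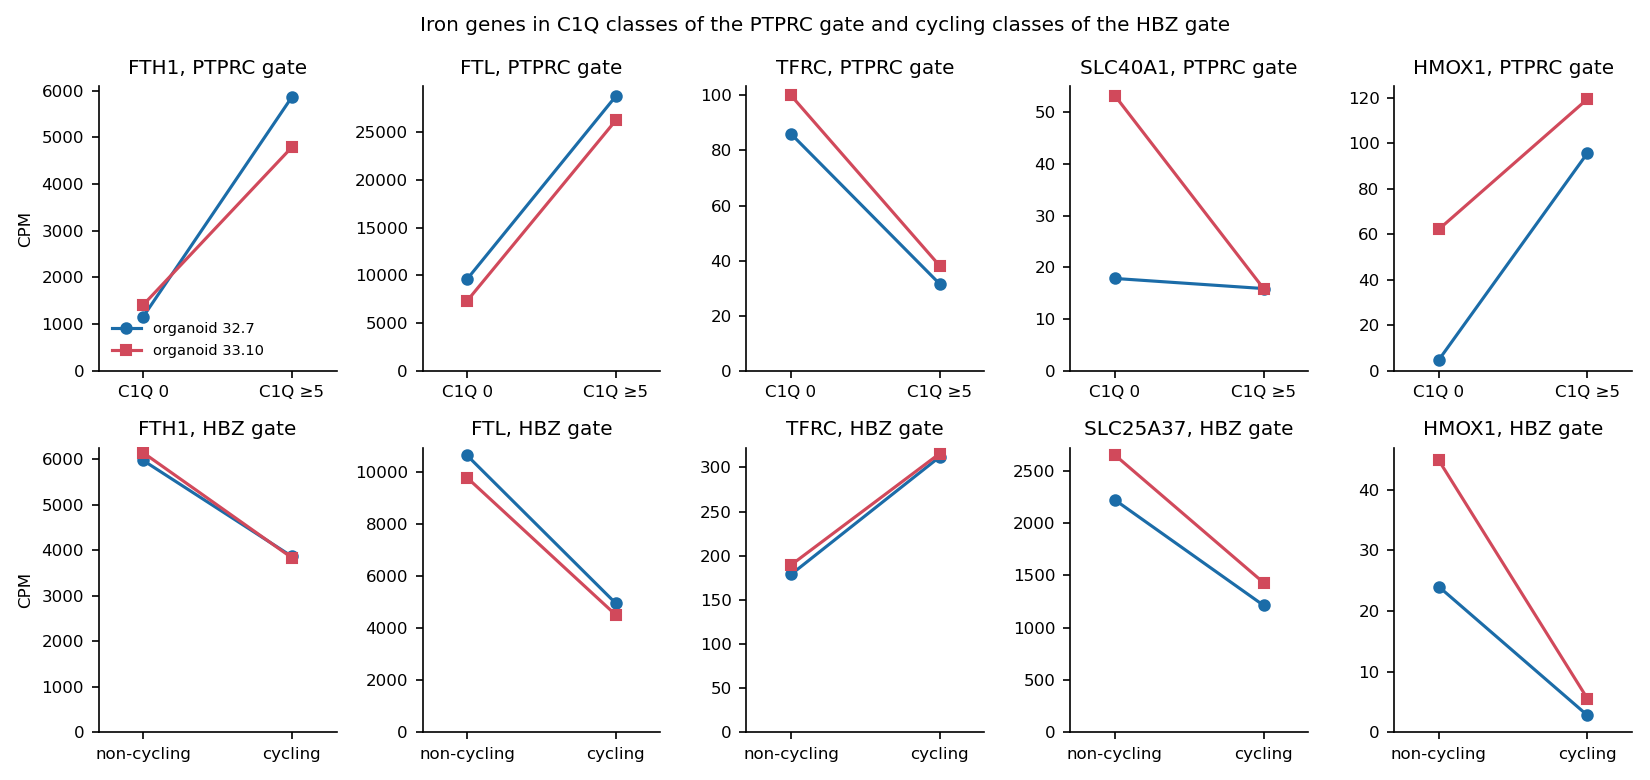
CPM (y axis, linear from 0) of 5 iron genes in C1Q-negative and C1Q-positive cells of the *PTPRC* gate (top row) and in non-cycling and cycling cells of the *HBZ* gate (bottom row), with a line per organoid. *FTH1* and *FTL* are higher and *TFRC* lower in C1Q-positive cells in both organoids, and in the *HBZ* gate *TFRC* is higher and the ferritin genes lower in cycling cells.

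*HMOX1* counts were concentrated in few cells in several gates. In the *PTPRC* gate 241 of 792 and 111 of 394 cells held a UMI, and the highest cell held 107 and 162 UMIs. Without that cell the levels were 55.1 and 74.2 CPM, still above every other gate. In the *MYH6* gate *HMOX1* was at 2.79 and 11.2 CPM (−1.63 ± 0.54, edgeR adjusted p = 0.0231), a range that overlapped with the *CDH5* gate, and the value from organoid 32.7 alone was −2.48. There 1 cell of organoid 33.10 held 117 of 221 UMIs and the level without it was 5.25 CPM. That call was lost with doubled gate minimums (adjusted p = 0.104) and with 10% of the free RNA profile removed (adjusted p = 0.0597). The *AFP* gate held 29.1 and 37.9 CPM and was not called (0.86 ± 0.72, edgeR adjusted p = 0.44). *HMOX1* in the *HBZ* gate was not called either (0.46 ± 0.46, edgeR adjusted p = 0.423). In both of these gates it passed the threshold under an alternative. Over the alternatives its log2 fold change ranged from −0.020 to 1.13 in the *HBZ* gate and from 0.74 to 1.86 in the *AFP* gate.

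Hepcidin (*HAMP*), known as a product of the liver and in smaller amounts of the heart, was a rare transcript. In the *MYH6* gate it was found at 6.38 and 6.20 CPM, with 96 and 123 UMIs in 52 of 1117 and 76 of 1266 cells. The highest cell held 14 and 5 of these UMIs, and the level without it was 5.45 and 5.96 CPM. *HAMP* was higher there than in the mean of the other gates (2.07 ± 0.37, edgeR adjusted p = 0.000461). That mean of log levels is lowered by gates with almost no *HAMP*, such as the *CDH5* gate at 0.129 and 0.126 CPM. Without the *AFP* gate in the fit, an alternative chosen after the data were seen, the log2 fold change was 2.87 ± 0.29 (edgeR adjusted p = 9.95e-06). The value from organoid 33.10 alone, whose *AFP* gate held 0 *HAMP* UMIs, was 3.31.

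In the *AFP* gate *HAMP* reached 29.1 CPM in organoid 32.7, from 61 UMIs in 10 of 171 cells, and 0 UMIs were counted in the 15 cells of organoid 33.10. In organoid 32.7 the 5 highest cells held 75.4% of these UMIs. With so few cells positive, 0 UMIs in 15 cells does not set an upper limit on the level in organoid 33.10. The call of *HAMP* in the *AFP* gate (4.25 ± 0.49, edgeR adjusted p = 3.91e-05) rests on organoid 32.7, since the value from organoid 33.10 alone was −5.44. In the *PF4* gate *HAMP* stood at 3.02 and 3.33 CPM, in 9 of 1045 and 36 of 2885 cells, and the 5 highest cells held 88.6% and 57.7% of the UMIs. The call in the *PF4* gate (1.25 ± 0.40, edgeR adjusted p = 0.022) was lost under 3 alternatives (adjusted p = 0.0695 to 0.467), and without the highest cell the levels were 0.865 and 2.31 CPM. From organoid 33.10 alone the value in the *PF4* gate was 2.57. Endothelial cells of the *CDH5* gate held 4 and 3 *HAMP* UMIs in all.

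In the *CDH5*, *MYH6* and *COL3A1* gates most of the iron genes were lower. These falls mirror in part the rises above, since the *HBZ*, *PF4* and *PTPRC* gates enter the mean they are set against. In the *CDH5* gate 8 of the 10 were lower and 0 higher, where 24.0% of all genes tested were lower and 27.1% higher. *FTL* fell by 1.94 and *FTH1* by 1.78 on the log2 scale, and *TFRC* by 1.74 (edgeR adjusted p = 2.14e-07, 9.24e-07 and 1.36e-07). *STEAP3* was the exception in direction, at 0.69 ± 0.29, and was not called (edgeR adjusted p = 0.0613), but was with the organoid as a block (adjusted p = 0.0427), as was the fall of *HMOX1* (adjusted p = 0.0173). The median log2 fold change was −1.28 over the 10 genes and 0.00 over all genes tested.

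In the *MYH6* gate 7 genes were lower and *HAMP* was the 1 higher gene, where 23.6% of all genes tested were lower and 27.1% higher. *FTL* fell by 2.22 and *TFR2* by 1.85 on the log2 scale (edgeR adjusted p = 7.55e-08 and 1.51e-05). *TFRC* (0.17 ± 0.11) and *SLC11A2* (0.00 ± 0.11) were not called, and *TFRC* at 45.8 and 61.9 CPM overlapped with the *PTPRC* gate. The median was −1.05 over the 10 genes and −0.01 over all genes tested.

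In the *COL3A1* gate 8 genes were lower and 0 higher, where 17.9% of all genes tested were lower and 25.7% higher, and without the *AFP* gate 7 were lower. *STEAP3* fell by 2.16 and *SLC25A37* by 1.31 on the log2 scale (edgeR adjusted p = 0.00105 and 6.16e-05). *STEAP3* rests there on 8 and 18 UMIs, and its value was −3.16 from organoid 32.7 alone and −0.30 from organoid 33.10 alone. *HAMP*, 1 of the 8 lower genes, was −2.81 and 0.65 from the same organoids alone. *SLC40A1* and *HMOX1* were not called there (−0.37 ± 0.22 and −0.74 ± 0.51), and *HMOX1* was with the organoid as a block (edgeR adjusted p = 0.0435). The median was −0.77 over the 10 genes and 0.04 over all genes tested. In the *AFP* gate 3 genes were higher and 2 lower, where 12.6% and 11.8% of all genes tested were. *FTL* (0.51 ± 0.12) and *FTH1* (0.39 ± 0.13) were higher besides *HAMP*, at edgeR adjusted p = 0.0071 and 0.0452, and neither was called without the cell filter. *SLC25A37* fell by 1.82 (−2.58 from organoid 33.10 alone) and *TFRC* by 0.98 (edgeR adjusted p = 5.64e-05 and 0.00129), and the median was 0.16 over the 10 genes and −0.10 over all genes tested.

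**Figure D5:**
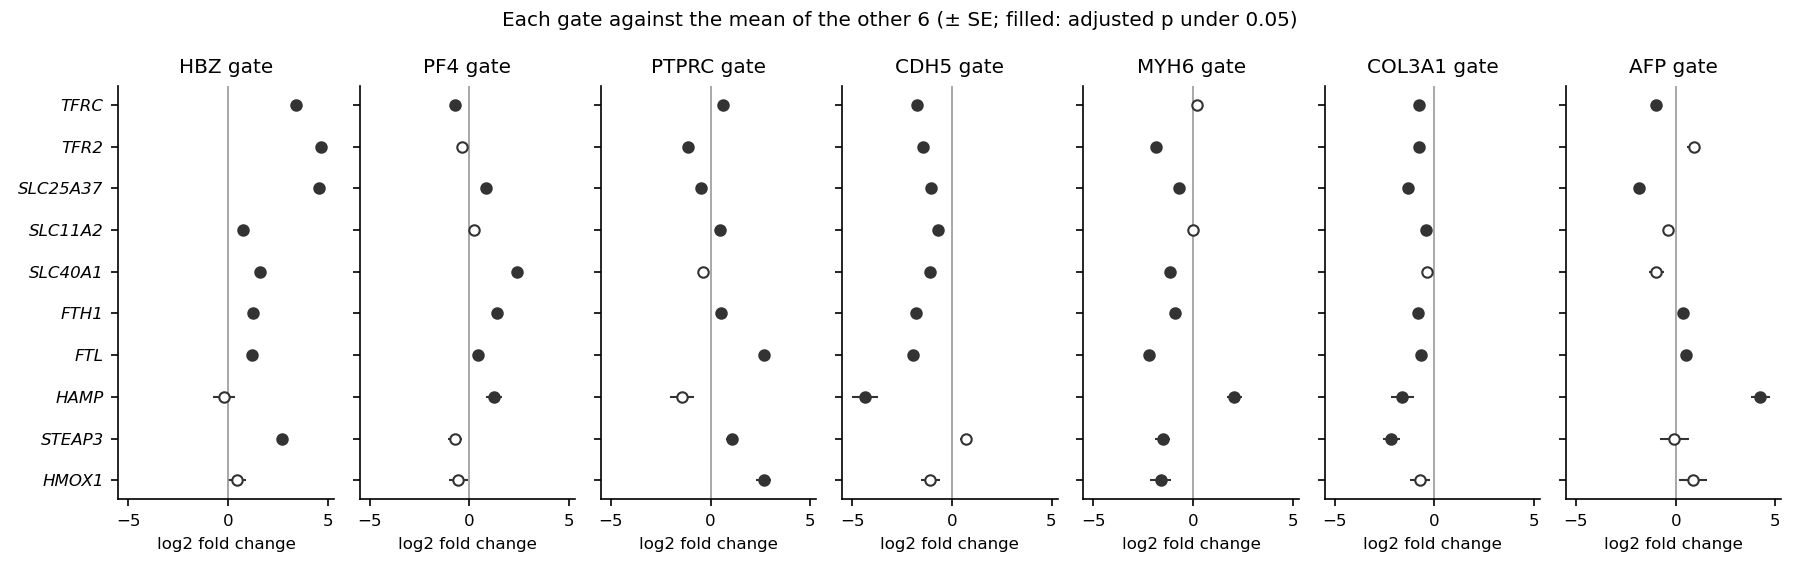
Log2 fold change (x axis) of the 10 genes (y axis) in each gate against the mean of the other 6, with SE bars that are often smaller than the symbol. Filled circles passed an edgeR adjusted p of 0.05. Filled circles lie to the right of 0 for 8 genes in the *HBZ* gate and to the left of 0 for 8 genes in each of the *CDH5* and *COL3A1* gates.

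A wider list of 40 iron genes was all found in the files, and 39 of them were tested across the gates. In the *HBZ* gate 17 of these were higher and 10 lower, where 22.7% of all genes tested were higher and 29.9% lower. The largest rises were *BLVRB* (4.59 ± 0.094), an enzyme that reduces biliverdin and flavins, *ERFE* (4.16 ± 0.61), the erythroid hormone that represses hepcidin, and *SLC39A8* (3.65 ± 0.13), a zinc, manganese and iron importer. *BLVRB* reached 1559 and 1525 CPM, while *ERFE* was just 0.819 and 1.02 CPM. *HPX* (haemopexin), *STEAP2* and *BMP6*, the inducer of hepcidin, had the largest falls there, by 3.15, 1.89 and 1.71 on the log2 scale. Without the *AFP* gate the first 2 of these falls were not called (edgeR adjusted p = 0.101 and 0.286), and with doubled gate minimums that of *BMP6* was not (adjusted p = 0.188). From organoid 32.7 alone *ERFE* was 3.46, *HPX* −4.63, *STEAP2* −4.22 and *BMP6* −0.85, and from organoid 33.10 alone *SLC39A8* was 5.07 and *STEAP2* −1.07. The *AFP* gate of organoid 33.10 held 0 *SLC39A8* UMIs. *HPX* and *STEAP2* rest there on at most 5 UMIs in either organoid.

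*BMP6* had its highest level in the *PF4* gate, at 31.3 and 50.3 CPM, where no other gate exceeded 5.33 CPM. *NCOA4*, which carries ferritin to lysosomes so that its iron is released, was also highest there, at 326 and 379 CPM. The largest rise of the wider list in this gate was that of *LCN2* (6.41 ± 0.29), at 54.7 and 47.8 CPM, where no other gate exceeded 2.62 CPM. These genes were singled out after their values were seen. In all, 7 of the 39 genes were higher and 15 lower in the *PF4* gate, where 22.7% of all genes tested were called in each direction.

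In the *PTPRC* gate 14 of the 39 genes were higher and 10 lower, where 27.9% of all genes tested were higher and 24.5% lower. *CD163*, the macrophage receptor for haptoglobin and haemoglobin, rose by 7.58 ± 0.33 on the log2 scale, to 115 and 137 CPM. *STEAP4*, a metalloreductase, rose by 6.67 ± 0.45. *LTF* (lactoferrin) rose by 5.84 ± 0.94, but its level was 8.06 CPM in organoid 32.7 and 0.119 CPM (1 UMI) in organoid 33.10, from which alone the value was 0.14. From organoid 33.10 alone *CD163* was 9.97 and *STEAP4* 7.44, and both had 0 UMIs in its *AFP* gate. The falls of *STEAP2*, *HPX* and *TF* were not called without the *AFP* gate (adjusted p = 0.082, 0.229 and 0.18). Those of *STEAP2* and *HPX* rest on at most 3 UMIs in the *PTPRC* gate of either organoid, with values of −1.42 and −4.63 from organoid 32.7 alone and −4.83 and −1.26 from organoid 33.10 alone, and *TF* was −3.50 from organoid 33.10 alone.

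In the *AFP* gate 11 of the 39 genes were higher and 7 lower, where 12.6% of all genes tested were higher and 11.8% lower. *TF* (transferrin) stood at 562 and 530 CPM (8.69 ± 0.26), *HPX* at 80.5 and 90.9 CPM (7.89 ± 0.32) and *TMPRSS6*, the hepcidin-lowering protease of hepatocytes, at 15.2 and 7.57 CPM (8.42 ± 0.68), the last from 2 UMIs in organoid 33.10. *TMPRSS6* was 7.77 from organoid 32.7 and 6.98 from organoid 33.10 alone, and *HPX* was 8.51 from organoid 32.7 alone. *SLC39A8*, *BLVRB* and *ABCB10* fell by 1.55, 1.48 and 1.02, with 0 UMIs of *SLC39A8* and 1 of *ABCB10* in organoid 33.10, where the values alone were −9.58 and −3.06. *TF* was also found at 12.4 and 11.8 CPM in the *HBZ* gate and at 0.239 to 1.64 CPM in the other 5 gates, where it was called higher in the *HBZ* gate (2.88 on the log2 scale).

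Among C1Q-positive cells 6 of 31 tested genes of the wider list were higher and 0 lower, where 7.94% of all genes tested were higher and 5.49% lower. *CD163* (6.18 ± 0.31), *HFE* (3.72 ± 0.54), the haemochromatosis protein, and *SLC46A1* (2.68 ± 0.74), a folate and haem carrier, rose most, and *SLC46A1* was not called with doubled gate minimums (adjusted p = 0.0732). From organoid 33.10 alone *SLC46A1* was 1.95 and *CD163* 5.46, and from organoid 32.7 alone *CD163* was 6.84. *CD163* is itself 1 of the markers of macrophages. In cycling cells of the *HBZ* gate, *NCOA4* was the 1 called gene of the 31, at 104 and 110 CPM compared with 189 and 235 CPM in non-cycling cells (−1.18 ± 0.16, edgeR adjusted p = 0.00205).

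Genes most like each iron gene over the 14 sums of gate and organoid, by Pearson r of log2(CPM + 1) among 10660 genes, were as follows, as a description in which sums of an organoid share its library. For *SLC25A37* they included *FECH* (r = 0.98), for *TFRC* they were *BLVRA* (0.95), *TMEM14C* (0.94) and *ERMAP* (0.92), and for *TFR2* *RPL24* (0.94), *AHSP* (0.93) and *C16orf95* (0.92). For *SLC40A1* they included *RIPOR3* (0.96) and *FAM20B* (0.94), for *FTL* they were *PTK2B* (0.94), *RFC2* (0.94) and *TKT* (0.94), and for *FTH1* *ADI1* (0.93), *NET1* (0.92) and *PDGFC* (0.91). *SLC11A2* was nearest to *LAMTOR5-AS1* (0.94), *UBAP1* (0.90) and *OIP5* (0.85), and *HMOX1* to *SNX8* (0.85), *Z94721.1* (0.85) and *BAG4* (0.84).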

How the data were processed

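Per the labels and file headers, the deposited counts came from Cell Ranger 7.0.0, run by the authors on GRCh38. They count UMIs of each gene in each barcode as whole numbers, precede the authors' removal of free RNA and were used unnormalized. Cells with 50 to 11000 genes and under 30% mitochondrial UMIs were kept (16792 and 19893), without a search for doublets. Cells passing several gates (4.01% and 4.78%) were left out. Whether they were doublets or single cells expressing several gating genes was not tested. UMIs were summed per gate and organoid (14 sums) and per sub-class (8 sums). Sums were compared in R 4.3.3 with edgeR 4.0.16 (TMM, genes filtered by expression, quasi-likelihood test, Benjamini-Hochberg), without the gating genes and, in the sub-classes, without C1Q genes, *MKI67* and *TOP2A*. A standard error is the log2 fold change divided by the square root of F. The test was also run on simulated counts with a fixed dispersion and no organoid effect. That run does not cover sums of an organoid that deviate together or a gate with few cells. For each gene, the p-values rest on an estimate of the spread between the 2 organoids that all gates of a fit share. They do not measure the spread in the tested gate alone, and intervals for counting error were not added. The gates of an organoid come from the same organoid, and the deviations of 21 pairs of gates correlated between −0.035 and 0.336 (median 0.187, over 0.1 in 14 pairs). Alternatives were halved or doubled gate minimums, a stricter exclusion, no cell filter, at least 5000 UMIs per cell, 10% of the free RNA profile removed, RLE factors, globin UMIs left out, no low-count filter, DESeq2 1.42.0, the organoid as a block and each organoid left out. Leaving out the *AFP* gate was added after the data were seen. The 10 genes are all named. From the wider list, the 3 that rose most and the 3 that fell most, past the threshold and alike in sign in both organoids, are named for the *HBZ*, *PTPRC* and *AFP* gates and both sub-class comparisons. The 3 most similar genes are named for iron genes with a mean of at least 10 CPM. Members and lists were chosen with earlier results of these data known. Some of the genes most like *SLC25A37* and *SLC40A1* are not reported here.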

Additional observations from a re-analysis of the deposited data

How the results depend on the processing

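Of the 90 tests of the 10 iron genes, which are not independent, 59 passed the threshold. Each of these kept its direction under every alternative that allowed a test. All 59 stayed called with RLE factors, without the low-count filter, with cells of at least 5000 UMIs and with the organoid as a replicate block, which made no call of theirs fail. Calls were lost for 6 with doubled and 3 with halved gate minimums, 5 with 10% of the free RNA profile removed, 3 with the stricter exclusion, 3 without the cell filter and 1 each with DESeq2 and without the *AFP* gate. Some tests not called in the main fit passed under an alternative. For *HMOX1* these were the *HBZ*, *PF4*, *CDH5*, *COL3A1* and *AFP* gates and the C1Q comparison. For *SLC40A1* they were the *PTPRC*, *COL3A1* and *AFP* gates and the C1Q comparison, and for *TFR2* the *AFP* gate and both sub-class comparisons. The others were *STEAP3* (*PF4* and *CDH5* gates, cycling), *SLC11A2* (*PF4* and *AFP* gates), *HAMP* (*PTPRC* gate), *TFRC* (*MYH6* gate) and *SLC25A37* (C1Q). The number of iron genes called was 3 instead of 5 in the *AFP* gate without the cell filter. In the C1Q comparison it was 6 instead of 3 with halved minimums, and 5 without the low-count filter or with the replicate block. All genes called in the C1Q comparison were 1321 instead of 2133 with free RNA removed. In the cycling comparison 1065 genes were called, against 1907 with halved minimums, 637 with doubled minimums, 1765 with the stricter exclusion, 1926 without the low-count filter and 1656 with the organoid as a replicate block. The cause of these shifts was not tested. With a single organoid, which allows no test, *HAMP* ranged from −2.81 to 0.65 in the *COL3A1* gate and from −5.44 to 4.90 in the *AFP* gate.

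Values that had not passed the threshold changed sign for *HAMP* in the *HBZ* gate (0.28 with doubled minimums, 0.39 with free RNA removed, 0.52 without the *AFP* gate) and for *HMOX1* there (−0.020 with doubled minimums) and in the *PF4* gate (0.11 with the stricter exclusion). *SLC11A2* in the *MYH6* gate, at −0.0044, gave 0.034 with halved and 0.068 with doubled minimums, 0.16 with the stricter exclusion, 0.0028 with at least 5000 UMIs, 0.016 with free RNA removed, 0.021 with RLE factors and 0.025 by DESeq2. *SLC11A2* in cycling cells gave −0.016 with doubled minimums, and *STEAP3* in the *AFP* gate gave 0.026 with halved minimums and 0.49 with the stricter exclusion. DESeq2 moved the median log2 fold change of all genes by over 0.1 in the *PTPRC* gate (from −0.03 to −0.13), the *CDH5* gate (from 0.00 to −0.11) and the *AFP* gate (from −0.10 to 0.02).

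With 2 organoids and 1 library each, differences between organoids and libraries cannot be told apart. In the *AFP* gate 3 UMIs amount to 1.43 CPM in organoid 32.7 and 11.4 CPM in organoid 33.10, and to 0.096 to 0.358 CPM in the other gates. Transcript counts do not measure protein, iron or transport.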

Other observations

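Cells that passed no gate, described after the data were seen and in no comparison, held *TFRC* at 35.1 and 40.5 CPM, *SLC25A37* at 114 and 179 CPM, *SLC40A1* at 31.3 and 58.0 CPM, *FTH1* at 2703 and 3125 CPM, *FTL* at 4665 and 3815 CPM and *HMOX1* at 23.3 and 23.6 CPM in organoids 32.7 and 33.10. They were shallower than gated cells, with a median of 4488 and 5550 UMIs per cell. *HAMP* was counted there at 3.33 and 3.13 CPM (199 and 248 UMIs), more UMIs in all than in any gate. Cells that passed several gates had a median of 31090 and 29726 UMIs and held *SLC25A37* at 214 and 484 CPM.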
